A study of Canis lupus familiaris with 7 samples.

Results

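Immediate early transcription factors are encoded by genes that cells switch on within minutes of a stimulus, from factors already present and without new protein synthesis. Their transcripts and proteins are short-lived, and in the heart they are known for responding to stretch, pressure load, adrenergic drive and ischaemia. FOS and JUN proteins pair through leucine zippers into the factor AP-1, the EGR proteins bind GC-rich promoter sites through zinc fingers, and MYC drives growth programmes with its partner MAX. The 10 immediate early genes described are FOS, FOSB, JUN, JUNB, EGR1, EGR2, ATF3, MYC, IER2 and IER3, taken with every array probe set whose only gene symbol is one of them. IER3 is described below as a modulator of apoptosis and signalling, not as a transcription factor. The 10 genes are read by 14 of the 42924 probe sets that are not array controls. Of these 14, 9 probe sets for 8 genes were bright enough to enter the test. The probe sets of JUNB and ATF3 and the dimmer ones of EGR1, IER2 and IER3 were not, and are given as values only.

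The arrays read total left ventricular RNA of adult mongrel dogs, all male, 3 control samples (numbered 1, 3 and 4) and 4 samples (numbered 1 to 4) of dogs fed 0.5% sodium chloride for 2 weeks. The sources used here state neither the salt content of the control diet nor how the 10 dogs named in the design text relate to the 4 low-salt arrays. No genotype or drug is labelled for either group, and no age beyond adult. The labels do not say that each sample is a separate animal, so the tests measure the spread between these samples. Deposited values are intensities on a linear scale. Normalized levels and differences below are on the log2(intensity + 16) scale after quantile normalization, which understates differences of dim probe sets. No gene's level is ranked against another gene's, because probes differ in how brightly they bind. Probe sets of the same gene are ordered by brightness, and some values are placed beside the median intensity of their own array.

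Every ventricular marker list member named on the array was tested (12 of 13 genes, with MYH6 not named), and their summed deposited intensity ran from 83325 to 131515 over the 7 arrays. Their median difference was 0.01. Of these 12 genes 1 had an unadjusted p under 0.05, TNNI3 (0.25, limma unadjusted p = 0.0377, adjusted p = 0.422), with overlap. The median deposited intensity lay between 31.5 and 51.3 on the control arrays and between 19.3 and 44.2 on the low-salt arrays, highest in control 4 and low-salt 3, although all arrays share 1 trimmed mean. The GAPDH 3' to 5' signal ratio, which moves with RNA integrity, was 2.58 ± 0.18 (SD, n = 3) for control arrays and 2.27 ± 0.17 (SD, n = 4) for low-salt arrays. No value was shared between the ranges (p = 0.0571 by exact permutation over 35 splits, two-sided). The actin 3' to 5' ratio ran from 298 to 387 on control arrays and was 369, 172, 718 and 1621 in low-salt samples 1 to 4 (p = 0.400 by exact permutation, two-sided). The part of these ratios in the results below was not tested.

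The transcripts of 2 members stood lower in low salt (EGR2 and FOSB), 2 stood higher (MYC and IER3), and limma called 0 of the 9 tested probe sets at an adjusted p of 0.05. In all 4 of these genes the normalized values of the groups did not overlap. By limma, 2 of the 9 probe sets were lower and the same number higher when the unadjusted p was held under 0.05, where 5.78% of all tested probe sets were lower and 5.27% higher. Groups without overlap were seen, lower, in 5.68% and, higher, in 5.13% of all tested probe sets. Across the whole array 99 probe sets, or 0.346%, passed the adjusted threshold (21 to 290 with 1 array left out). The design text's threshold is an unadjusted p of 0.05 with a 2-fold difference, and by limma on the normalized scale MYC and IER3 stood past it, beside 4.4% of all tested probe sets. Which members pass it depends on the processing. As deposited, without normalization, they were EGR2 (-1.36) and FOSB (-1.24) instead, with an offset of 64 there were 0, with an offset of 1 there were 3 (EGR2, MYC and IER3), and by the methods' t-test there was 1 (MYC). The number over all 28616 tested probe sets moved as well. It was 1260 in the main fit, 2164 as deposited, 215 with an offset of 64, 1925 with an offset of 1 and 871 by the methods' t-test. FOS, JUN, EGR1 and IER2 did not reach an unadjusted p under 0.05.

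**Figure D1:**
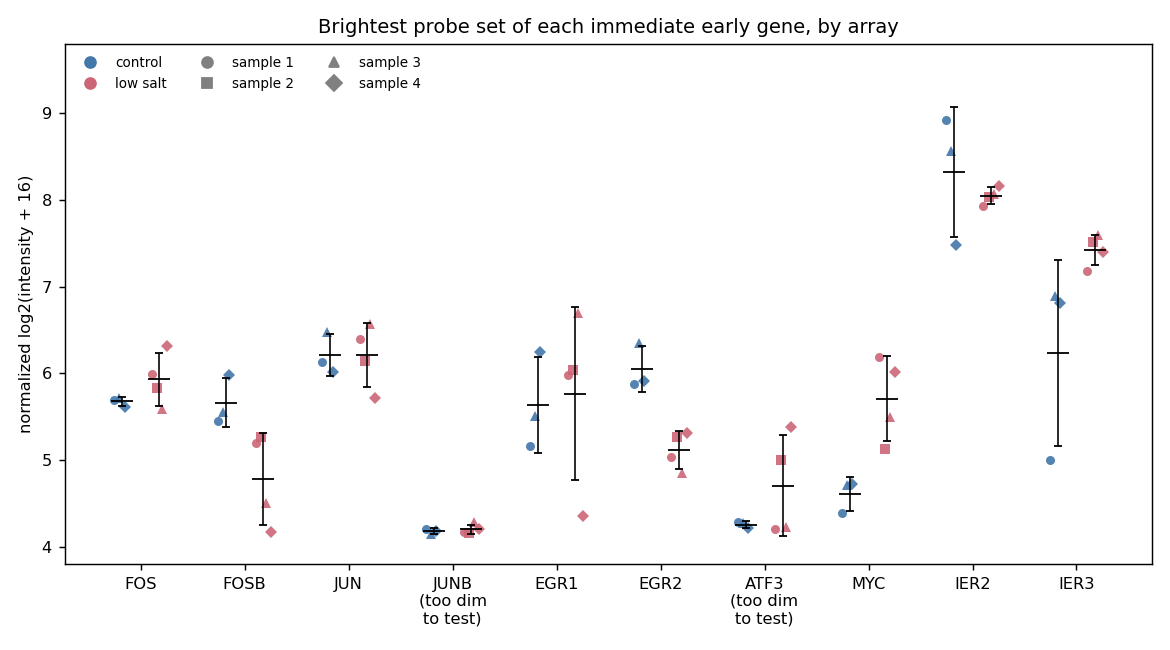
Normalized level of the brightest probe set of each of the 10 genes (vertical axis, log2(intensity + 16)) on every array, controls in blue and low salt in red, with mean and SD as black bars and the sample number as marker shape. EGR2 and FOSB lie lower and MYC and IER3 higher in low salt without overlap, while the groups of the other 6 genes overlap.

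EGR2, a zinc finger factor of the EGR family best known for peripheral myelination and for its induction in activated lymphocytes, stood lower in low salt. Its deposited intensities were 54.1, 64.8 and 69.3 in controls 1, 3 and 4, and 11.4, 15.04, 18.3 and 14.2 in low-salt samples 1 to 4. Every low-salt value lay under every control value. After normalization control 3 was the highest at 6.35, with controls 1 and 4 at 5.88 and 5.92. The mean deposited intensity in low salt was 0.235 times that in controls, with array-wide differences in signal still included, and after normalization the change was 1.91-fold. All low-salt EGR2 values lay under the median deposited intensity of their own array (21.8, 21.6, 44.2 and 19.3 in samples 1 to 4). On the normalized scale the level was 6.05 ± 0.26 (SD, n = 3) for controls and 5.11 ± 0.22 (SD, n = 4) for low salt. The difference was -0.94 ± 0.33 (SE, 95% interval -1.64 to -0.23), with a limma unadjusted p of 0.0133 and adjusted p of 0.330. With control 3 left out it was -0.79 (unadjusted p = 0.0632). In the fits without 1 of the other 6 arrays, in turn, it kept an unadjusted p under 0.05. The size depends on the offset, from -0.47 with 64 to -1.42 with 1. The methods' t-test, run here on the normalized values without the variance stabilization that the design text names, gave EGR2 the smallest p of the members, 0.00344 (0.344 after Benjamini-Hochberg). EGR2 is read by 1 probe set only.

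FOSB, a FOS family partner of the JUN proteins and the source of the long-lived variant ΔFosB, was the other member that stood lower. Its deposited intensities were 35.2, 30.9 and 73.1 in controls 1, 3 and 4, and 14.0, 14.98, 10.3 and 0.981 in low-salt samples 1 to 4. The groups did not overlap, control 4 was highest and low-salt 4 was far below the other low-salt samples. All low-salt values, and those of controls 1 and 3, lay under the median deposited intensity of their own array. On the normalized scale the level was 5.66 ± 0.28 (SD, n = 3) for controls and 4.78 ± 0.53 (SD, n = 4) for low salt, a difference of -0.88 ± 0.39 (SE, 95% interval -1.72 to -0.03). The limma unadjusted p was 0.0425 and the adjusted p 0.434. In 5 of the 7 fits without 1 array the unadjusted p was above 0.05. The difference was -0.69 both without control 4 (unadjusted p = 0.143) and without low-salt 4 (unadjusted p = 0.116), and -0.77 without low-salt 3 (unadjusted p = 0.0836). It was no smaller without control 1 (-0.96, unadjusted p = 0.0515) or control 3 (-0.93, unadjusted p = 0.0695). With an offset of 64 the FOSB difference was -0.38 and with 1 it was -1.79. With control 4 and low-salt 3 left out together, an alternative chosen after seeing the data, the difference was -0.58 (unadjusted p = 0.222).

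MYC, the E-box factor that drives ribosome production, metabolism and growth and that is induced in loaded heart muscle, stood higher in low salt. Its deposited intensities were 5.74, 9.74 and 17.6 in controls 1, 3 and 4, and 42.7, 12.6, 40.9 and 32.3 in low-salt samples 1 to 4. Low-salt 2 lay below control 4 as deposited, so the groups overlapped on that scale, while after normalization they did not. The normalized level was 4.61 ± 0.19 (SD, n = 3) for controls and 5.70 ± 0.49 (SD, n = 4) for low salt, and the control values are close to the floor that the offset sets. MYC differed by 1.10 ± 0.38 (SE, 95% interval 0.29 to 1.91), with a limma unadjusted p of 0.0116 and adjusted p of 0.321. It had an unadjusted p from 0.00614 to 0.0421 over the 7 fits that each drop 1 array. As deposited, without normalization, the difference was 0.80 (unadjusted p = 0.0847). The size depends on the offset, from 0.49 with 64 to 2.02 with 1.

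IER3, a stress-induced gene also known as IEX-1 that modulates apoptosis and NF-κB and kinase signalling, stood higher in low salt on its brighter probe set. Its deposited intensities were 19.4, 101 and 121 in controls 1, 3 and 4, and 116, 158, 185 and 139 in low-salt samples 1 to 4. Control 1 lay far below the other 6 arrays, and low-salt 1 lay below control 4 as deposited, though not after normalization. The normalized level was 6.23 ± 1.07 (SD, n = 3) for controls and 7.42 ± 0.18 (SD, n = 4) for low salt, a difference of 1.19 ± 0.40 (SE, 95% interval 0.32 to 2.06). The limma unadjusted p was 0.0111 and the adjusted p 0.319. Without control 1 the difference was 0.58 (unadjusted p = 0.0602), so the size rests on that array. The methods' t-test gave an unadjusted p of 0.0744. With an offset of 64 the difference was 0.77 and with 1 it was 1.51. The dimmer IER3 probe set, too dim to be tested, stood at 4.31 ± 0.05 (SD, n = 3) and 4.66 ± 0.55 (SD, n = 4), a difference of 0.35 (0.14 without low-salt 4), with low-salt 4 highest and low-salt 3 lowest of all 7 arrays.

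**Figure D2:**
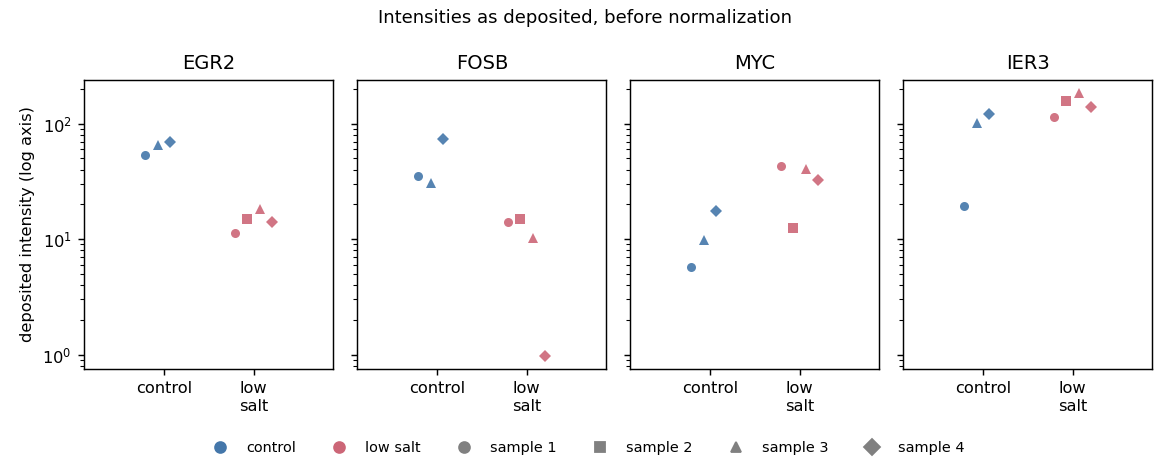
Deposited intensity, before normalization, of the brightest probe set of EGR2, FOSB, MYC and IER3 (logarithmic vertical axis) on each array, controls in blue and low salt in red, marker shape giving the sample number. EGR2 and FOSB do not overlap between groups, MYC overlaps through low-salt 2 at 12.6 and control 4 at 17.6, and IER3 has 1 control at 19.4 and the others at 101 and 121.

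FOS, the prototype immediate early gene and the usual partner of JUN in AP-1, did not separate the groups. Its brighter probe set had deposited intensities of 45.1, 36.7 and 53.6 in controls 1, 3 and 4, and 34.4, 29.0, 45.1 and 44.7 in low-salt samples 1 to 4. Controls lay close together after normalization, at 5.67 ± 0.05 (SD, n = 3), and the low-salt samples at 5.93 ± 0.30 (SD, n = 4) reached both below and above them. The difference was 0.25 ± 0.31 (SE, 95% interval -0.42 to 0.93), with a limma adjusted p of 0.808, and it was 0.13 without low-salt 4. The other FOS probe set differed by 0.11 (95% interval -0.63 to 0.85, limma adjusted p = 0.938), and by -0.11 without control 1. Both FOS differences took the other sign with the values as deposited, -0.17 and -0.28. The intervals reach 0.93 and 0.85 on the upper side, so they do not show equal levels.

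JUN, the AP-1 subunit that can pair with itself as well as with FOS proteins, had almost the same mean in both groups after normalization. Its deposited intensities were 67.6, 72.3 and 74.7 in controls 1, 3 and 4, and 53.6, 40.7, 97.4 and 23.0 in low-salt samples 1 to 4. Low-salt 1, 2 and 4 lay below every control and low-salt 3 above them all, and as deposited the log2 difference was -0.44. The normalized level was 6.21 ± 0.24 (SD, n = 3) and 6.21 ± 0.37 (SD, n = 4), a difference of -0.0032 ± 0.31 (SE, 95% interval -0.68 to 0.67, limma adjusted p = 0.998). JUNB, a JUN family member with weaker activating properties, ran from 0.980 to 5.34 in deposited intensity over all 7 arrays and was too dim to be tested. Its normalized level was 4.18 ± 0.03 (SD, n = 3) for controls and 4.20 ± 0.06 (SD, n = 4) for low salt, at the floor in both groups.

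EGR1, an early zinc finger factor of growth and injury responses in vessel wall and heart, varied more between low-salt samples than any other tested member. Deposited intensities of its brighter probe set were 24.5, 29.6 and 87.5 in controls 1, 3 and 4, and 33.9, 36.5, 105 and 2.28 in low-salt samples 1 to 4. Low-salt 3 was the highest and low-salt 4 the lowest of all 7 arrays. The normalized level was 5.64 ± 0.55 (SD, n = 3) and 5.76 ± 0.998 (SD, n = 4), a difference of 0.13 ± 0.49 (SE, 95% interval -0.93 to 1.19, limma adjusted p = 0.950). Its sign turned without control 1 (-0.10) and without low-salt 3 (-0.17), and without low-salt 4 the difference was 0.60. The dimmer EGR1 probe set, not tested, stood at 4.91 ± 0.51 (SD, n = 3) and 4.58 ± 0.64 (SD, n = 4), a difference of -0.33, which was -0.10 without control 4 and -0.67 without low-salt 2. Low-salt 4 was lowest on it too, but low-salt 3, highest on the brighter one, was not high.

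ATF3, a stress-induced factor of the ATF/CREB family that often represses, was too dim to be tested. Its deposited intensities were 4.06, 2.97 and 4.61 in controls 1, 3 and 4, and 1.35, 10.7, 4.29 and 15.3 in low-salt samples 1 to 4. Low-salt 2 and low-salt 4 stood above all controls and the other low-salt samples did not. The normalized difference was 0.45, between 4.25 ± 0.04 (SD, n = 3) and 4.70 ± 0.58 (SD, n = 4), and it was 0.23 without low-salt 4. IER2, a small nuclear early response protein, had deposited intensities of 461, 364 and 175 in controls 1, 3 and 4, and 223, 247, 252 and 265 in low-salt samples 1 to 4. The 3 controls spanned all the low-salt values, which lay close together.

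On the normalized scale IER2 stood at 8.32 ± 0.75 (SD, n = 3) for controls and 8.05 ± 0.10 (SD, n = 4) for low salt, a difference of -0.27 ± 0.30 (SE, 95% interval -0.92 to 0.38, limma adjusted p = 0.784). Without control 4 it was -0.71 (unadjusted p = 0.0142, adjusted p = 0.252), and without control 1 it was 0.03. With array medians set equal it was 0.12. The other IER2 probe set, too dim to be tested, differed by 0.08.

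**Figure D3:**
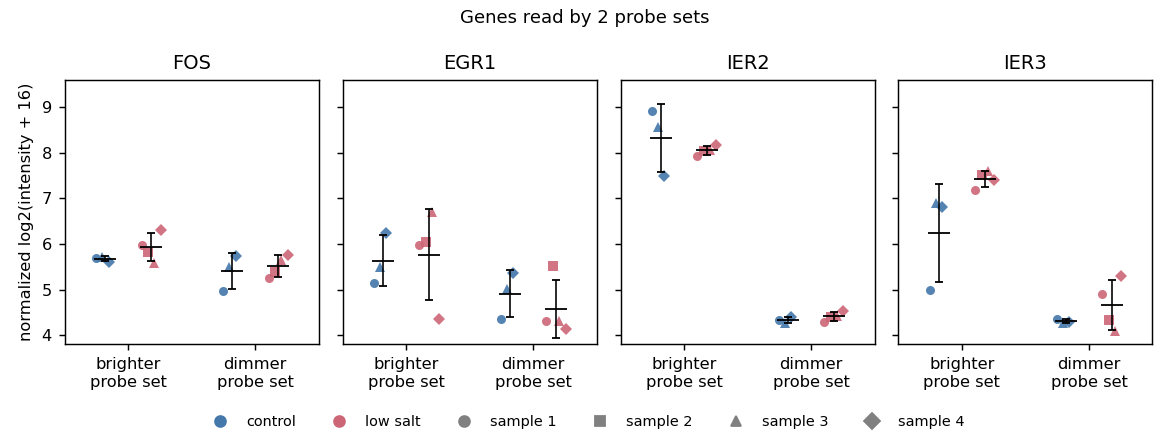
Normalized level (vertical axis, log2(intensity + 16)) of the brighter and the dimmer probe set of FOS, EGR1, IER2 and IER3 on each array, with mean and SD as black bars, controls in blue and low salt in red. The dimmer IER2 and IER3 probe sets lie near the floor, and the order of the low-salt arrays is not the same on both EGR1 or both IER3 probe sets.

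The members did not move as a block across the arrays. Among the brightest probe sets of the 8 tested genes, low-salt 4 held the highest value of FOS and the lowest of FOSB, JUN and EGR1. Low-salt 3 held the highest value of JUN, EGR1 and IER3 and the lowest of FOS and EGR2. Control 1 was highest for IER2 and lowest for MYC and IER3. Over the 8 tested genes the median difference was 0.06, beside 0.05 over all 11381 genes taken by their brightest tested probe set. The 5 genes whose levels followed FOS most closely over the 7 arrays, by the root mean square difference of log2 levels each centred on its own mean, were CCNE1 (0.077), AKAP12 (0.080), ATRAID (0.086), SKP1 (0.088) and TCEA3 (0.092). JUN, the nearest tested member, differed from FOS by 0.456 on that measure and ranked 5865 of 11380 genes, and EGR1, the farthest, by 0.907. FOS itself deviated from its own mean by 0.237, so small distances favour genes of small spread.

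The wider family of AP-1 showed no gene at an unadjusted p under 0.05. Of 20 genes in that list the array names 12 and 10 could be tested, with 8 differences above 0 and a median of 0.16. At the level of genes, 5.57% of all tested genes were higher and 4.89% lower at that p. The genes of smallest p were JDP2, a repressor that binds AP-1 sites (0.71 ± 0.40, SE, limma adjusted p = 0.554), and FOSL1, which encodes the FOS family member FRA-1 (-0.51 ± 0.32). CREM, a cyclic AMP responsive modulator, followed at 0.30, with its other probe set, too dim to be tested, at -0.44. ATF2, a stress kinase target that pairs with JUN, stood at -0.15 and its others between -0.43 and -0.19. Among EGR relatives 3 of 5 genes were tested, 0 at an unadjusted p under 0.05, with a median of 0.26. These were EGR3 (0.11 ± 0.42), a close relative of EGR2, and the EGR corepressors NAB1 (0.49 ± 0.47) and NAB2 (0.26 ± 0.26). The other 4 NAB2 probe sets differed by -0.73, -0.48, -0.15 and 0.15, so that gene had no single direction.

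In the MYC network, 11 of 12 genes were tested, with a median of 0.00, 1 gene higher and 2 lower at an unadjusted p under 0.05. MLXIP, which encodes the glucose-sensing MLX partner MondoA, had the largest difference of the network. Its brightest probe set gave 133, 92.2 and 49.0 as deposited in controls 1, 3 and 4 and 3.01, 7.75, 4.91 and 1.81 in low-salt samples 1 to 4. Every low-salt value lay below every control value, with a normalized difference of -2.03 ± 0.41 (SE, limma adjusted p = 0.0635), and the 2 other MLXIP probe sets differed the other way, by 0.23 and 0.81. MXI1, a MAX partner that opposes MYC, differed by -0.59 ± 0.27 (adjusted p = 0.447), also without overlap, and its others by 0.35 and -1.04. MLXIPL, the related carbohydrate response factor ChREBP, differed by 0.93 ± 0.40 (adjusted p = 0.411) and its others by -0.20 and -0.71. MLX, the shared partner, differed by -0.23 and its others by 0.01 and, without overlap between the groups, 0.30.

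Of the other early response genes, 33 of 41 were named on the array and 27 tested, with a median of -0.08. At an unadjusted p under 0.05 stood 0 higher and 2 lower genes. IER5L, a relative of the IER2 and IER5 genes, had deposited intensities of 179, 113 and 113 in controls 1, 3 and 4 and 21.1, 19.4, 77.5 and 33.1 in low-salt samples 1 to 4. The groups did not overlap, and the difference was -1.26 ± 0.32 (SE, limma adjusted p = 0.158), while its other probe set, too dim to be tested, differed by 0.21. KLF4, a zinc finger factor of vessel wall and differentiation, differed by -0.41 ± 0.17 (adjusted p = 0.400), without overlap, and its other probe set by -0.17. NFIL3, a leucine zipper repressor, differed by 0.38 ± 0.18 and also separated the groups, with its others at -0.11 and 0.48. The MAP kinase phosphatase DUSP1 differed by -0.47 ± 0.23 on the brightest probe set and by 0.39 and 0.19 on the others.

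The kinases and factors that act upstream of immediate early genes held 1 gene at an unadjusted p under 0.05, among 17 tested of 22, and their median was 0.09. MRTFA, the actin-regulated partner of serum response factor, differed by -0.96 ± 0.38 (SE, limma adjusted p = 0.387), with deposited intensities of 19.7, 41.3 and 74.4 in controls 1, 3 and 4 and 4.30, 4.34, 12.2 and 9.43 in low-salt samples 1 to 4. Its relative MRTFB differed by -0.52 ± 0.38 and by 0.19 on a dimmer, untested probe set. SRF, the serum response factor itself, differed by 0.15 and on its others by 0.33 and -0.26. The kinase MAP2K2 (MEK2) differed by 0.70 ± 0.35 and the stress kinase MAPK14 (p38α) by -0.34, while another MAP2K2 probe set differed by -0.15 and those of MAPK14 ran from -0.96 to 0.73.

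**Figure D4:**
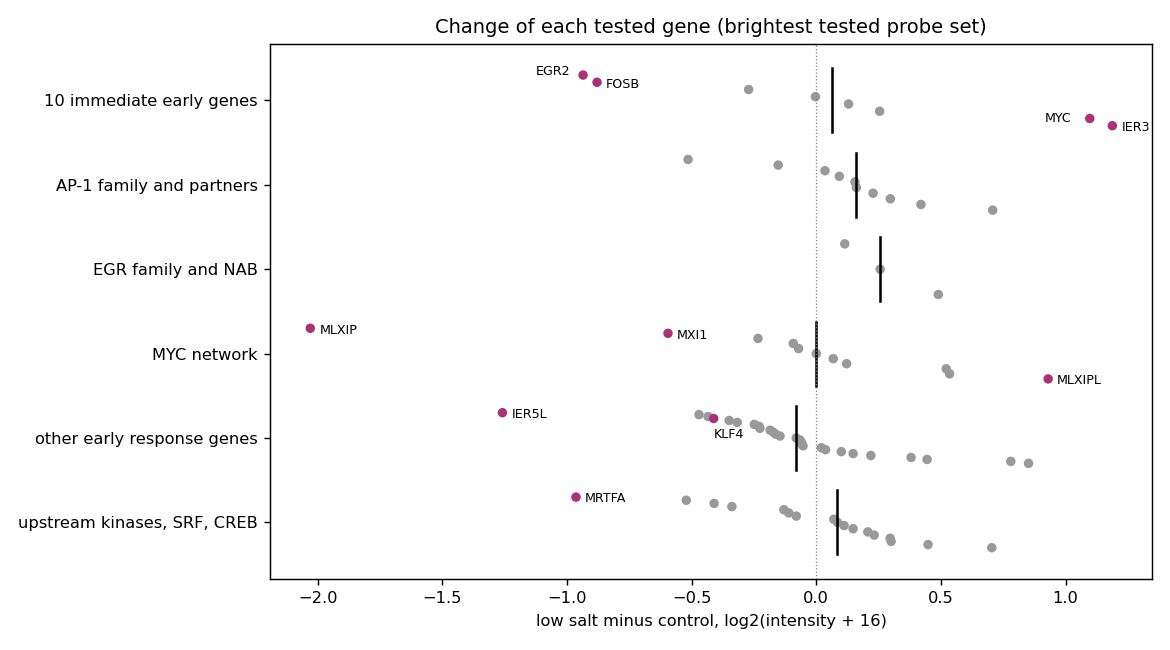
Low salt minus control (horizontal axis, log2(intensity + 16)) for each tested gene of the 6 gene lists by its brightest tested probe set, 1 point a gene, with the list median as a vertical bar and genes at an unadjusted p under 0.05 in purple. The medians lie between -0.08 and 0.26, and MLXIP at -2.03 is the farthest point.

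Markers of other cell types were checked on the same arrays, since fewer cells of a type and less RNA per cell cannot be told apart in bulk tissue. Of the leukocyte markers 10 of 12 were tested, 0 of them at an unadjusted p under 0.05, though 9 differences were above 0 and the median was 0.26 (S100A8 0.78, S100A9 0.66). Their summed deposited intensity ran from 3031 to 4846 in controls and from 3757 to 4711 in low salt. Endothelial sums ran from 6278 to 9122 and from 6457 to 8679, fibroblast sums from 10176 to 16944 and from 11738 to 16165, and smooth muscle sums from 768 to 1485 and from 1004 to 1487. CNN1, the smooth muscle gene calponin, stood higher without overlap (1.19, limma unadjusted p = 0.0043, adjusted p = 0.243) and its other probe set differed by 0.38, while the median of the 6 smooth muscle and pericyte markers was -0.10. Of the atrial markers 3 were tested and 2 stood lower, while MYL7 differed by 0.39 (limma unadjusted p = 0.0823), with overlap. MYL4, the atrial light chain, differed by -2.14 (limma unadjusted p = 0.00536, adjusted p = 0.258) and its other probe set by -1.70, with overlap. NR2F2, an atrial identity factor, differed by -0.75 without overlap (limma unadjusted p = 0.00462, adjusted p = 0.248), and its others by -0.69 and -0.10. Atrial sums overlapped, from 3079 to 7594 in controls and from 3595 to 6100 in low salt. Among the 8 marker lists the summed intensity separated the groups only for the 5 skeletal muscle markers, with sums of 262 to 462 in controls and 28.3 to 179 in low salt. TNNI2, fast skeletal troponin I, passed (-2.38 ± 0.44, SE, limma adjusted p = 0.0411) and its other probe set differed by 0.59. The TNNI2 adjusted p by limma was 0.226 without control 1, 0.126 without control 3, 0.109 without low-salt 2, 0.0591 without low-salt 3 and 0.0995 without low-salt 4. It stayed under 0.05 without control 4 (0.0256) and without low-salt 1 (0.0488). Over these fits the limma differences ran from -2.66 to -1.97. Of the rest of that list, MYH1 and TNNT3 were too dim to be tested, and MYLPF and MYH2 differed by 0.28 and 0.10. The median of the 3 tested skeletal markers was 0.10, so the sum and the median of that list did not go the same way. CNN1, TAGLN, most leukocyte markers, MYL7, MYLPF and MYH2 ran in the direction of MYC and IER3. MYL4, NR2F2 and the brighter TNNI2 probe set ran in that of EGR2 and FOSB, as did most smooth muscle, endothelial and fibroblast markers. The atrial, smooth muscle and skeletal muscle lists thus each held markers of both directions. The part of these cell types in the members' differences was not tested.

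**Figure D5:**
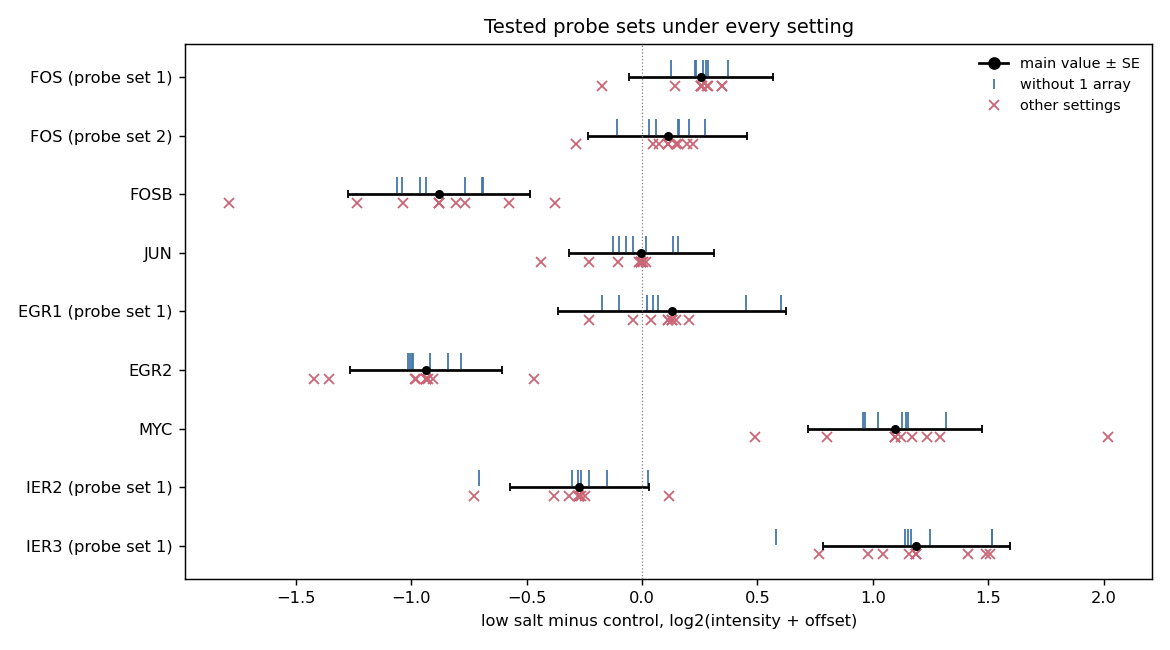
Difference of low salt minus control (horizontal axis, log2 of intensity plus the offset) for the 9 tested probe sets: black points with bars give the reported value and its SE, blue ticks the fits without 1 array, and red crosses the other settings at the level of probe sets. EGR2 and FOSB stay below 0 and MYC and IER3 above 0 in each fit drawn, and the signs of FOS, JUN, EGR1 and IER2 turn in at least 1.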

How the data were processed

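The members and gene lists were chosen with earlier results of these data known. The deposited values are linear probe set intensities, made with GCOS per the submitters' processing notes, and the 2% trimmed mean of each array is 150.0 or 150.1. From them log2(intensity + 16) was computed and quantile normalized without the 111 control probe sets. The dimmest 14308 of 42924 were left out, by the mean over all arrays. The other 28616 were tested with limma 3.58.1 (lmFit, eBayes with trend, R 4.3.3) without covariates, since no batch is labelled, and adjusted by Benjamini-Hochberg over all of them. Per the design text, the authors used a t-test with variance stabilization, calling a gene at p of 0.05, unadjusted, and a 2-fold change. The t-test run here as an alternative uses the normalized values, since that stabilization is not described further.

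All member probe sets are reported, the brightest first. Of each of the 5 gene lists beside the members, the 4 genes of smallest p, or all where fewer were tested, are named by their brightest tested probe set. Of the 8 marker lists only some genes are named. SRF, TAGLN, TNNI3 and the skeletal muscle markers were added after their values were seen. Platform annotation gave the names. Of the 10 gene numbers 9 are in the RefSeq gene table of UU_Cfam_GSD_1.0, and JUNB is there by symbol under another number. No sequence is printed. Arrays have no read depth, so the number of arrays limits the precision, and detection calls were not used here. Tested on simulated data for this comparison (28616 probe sets), the fit called 11% of log2 differences of 1 and 58% of those of 2 at the adjusted threshold.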

Additional observations from a re-analysis of the deposited data

Results flagged for a closer look

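The dimmer EGR1 probe set, which was too dim to be tested, held 1 low-salt sample apart from the other 3. Low-salt 2 stood at 5.52 on the normalized log2 scale and the others between 4.13 and 4.32, a gap of 0.865 of the group's whole range, above Dixon's 95% critical value for 4 samples. The low-salt groups of 14 probe sets were examined in this way, and chance marks about 1 group in 20. Groups of 3, the controls here, are not examined by this rule.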

How the results depend on the processing

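EGR2 and FOSB kept a negative and MYC and IER3 a positive difference in all 7 fits without 1 array and under the other offsets and normalizations, array weights, the replicate block and the removal of control 4 with low-salt 3. The filters and the methods' t-test leave the difference as it is and change only the test. In none of the 11 other settings or 7 fits did a member pass an adjusted p of 0.05. The number of members higher at an unadjusted p under 0.05, 2 here, was 1 with the values as deposited (MYC lost), above the median (MYC not tested) and by the methods' t-test (IER3 lost), and 1 to 2 without 1 array. The number lower, also 2, was 1 with an offset of 1, array medians set equal, array weights and the methods' t-test, each time without FOSB (unadjusted p = 0.0599, 0.0598, 0.0776 and 0.0502), and above the median, where FOSB was not tested, and 0 to 2 without 1 array. The replicate block gave EGR2 -0.99, FOSB -1.04, MYC 1.29 and IER3 1.16, with low-salt 2 unused. Same-numbered samples did not deviate together (correlations 0.07, -0.26 and -0.18). So few pairs cannot show whether the numbers pair animals, and the labels do not say.

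The 99 calls over all probe sets became 39 with an offset of 1, 165 as deposited, 27 without the filter, 177 with array weights, 27 with the replicate block, 4 by the methods' t-test, 7 over gene means, 377 with control 4 and low-salt 3 left out together, and 21 to 290 without 1 array. Of probe sets at an unadjusted p under 0.05, 47.7% were higher, against 72.3% with array medians set equal and 19.8% as deposited. The median of all tested probe sets was then 0.04, 0.26 and -0.18. The GAPDH ratio difference of -0.31 ran from -0.39 to -0.21 without 1 array, and that of the actin ratio (388, exact permutation p = 0.400) from 87.7 to 571. The causes were not tested.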
